A study of Mus musculus with 6 samples.

Results

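The nuclear genes of respiratory complexes II to V encode most of the protein subunits that pass electrons from succinate and ubiquinol to oxygen and that make ATP from the resulting proton gradient. The set was defined by name: the succinate dehydrogenase genes Sdha to Sdhd, Cyc1, Cycs, every Uqcr gene, every cytochrome c oxidase gene beginning Cox4 to Cox8, and every Atp5 gene, with pseudogenes left out. Of 49 coding genes that meet this rule, 46 were in the deposited table of 13734 genes and all 46 were among the 10054 genes tested. They comprised 4 genes of complex II, 9 of complex III, cytochrome c, 16 of complex IV and 16 of complex V. The testis-type isoforms Cox7b2 and Cox8c and the subunit c gene Atp5g2 are not analysed here. Cox7a2l entered by its name, although its product is known as a factor that joins respiratory complexes into supercomplexes.

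The cells were differentiated white adipocytes of a mouse line of immortalized subcutaneous preadipocytes in which the Dicer1 alleles are floxed and a Cre recombinase fused to a modified oestrogen receptor (Cre-ERT2) can be switched on by drug. The DICER_KO group (3 libraries) received 10 µM 4-hydroxytamoxifen for 48 h from day 6 of differentiation. The control group (3 libraries), which the titles call WT control, received ethanol. All 6 samples were then stimulated for 6 h with 10 µM isoproterenol, an agonist of beta-adrenergic receptors, and the values describe stimulated cells only. The Dicer1 deletion and exposure to 4-hydroxytamoxifen cannot be told apart, because no control received the drug. The labels call the replicates biological and do not say whether they were differentiated separately from the 1 cell line. The p-values here thus reflect the spread of these libraries, of which the technical share is not known.

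Complex II is the succinate dehydrogenase of the citric acid cycle and feeds electrons to ubiquinone. Complex III passes them to the small mobile protein cytochrome c, and complex IV, the terminal oxidase, hands them to oxygen. Complexes III and IV pump protons across the inner mitochondrial membrane, and complex V, the ATP synthase, uses the gradient through a rotating membrane ring that drives a catalytic head. In adipocytes this chain supplies ATP for lipid handling, and in brown and beige fat, where beta-adrenergic signals stimulate it, its energy can be released as heat.

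Dicer1 encodes the enzyme that cuts microRNA precursors, and its level checks the labels. It read 6.14, 6.09 and 6.14 log2 CPM (counts per 1e6 reads, with the authors' scaling) in the 3 controls and 5.43, 5.47 and 5.49 in the 3 DICER_KO libraries. The groups did not overlap, and the log2 difference was -0.66 (SE 0.10, limma adjusted p = 0.0150), although reads over exons that lie outside the floxed segment are counted as well. The call was lost without any one library other than DICER_KO replicate 3 (adjusted p of 0.0568 to 0.147), without limma's intensity trend and with a replicate block. The analysed genes held 13569034 to 30268077 reads per library. DICER_KO replicate 3 was the deepest library and stood apart. Its summed CPM over the mature adipocyte markers was 4713, against 9129 to 11086 in controls, while DICER_KO replicates 1 and 2 had 14827 and 14712. Fabp4 and Lpl, at 3667 and 2586 CPM in controls, weigh heavily in these sums. Replicate 3 lay below all controls in 18 of the 19 tested markers, against 28.9% of all genes. Counts of calls, and the genes described at length, are therefore given with all 6 libraries and also without that library.

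Transcripts of complexes II to V were more abundant in 2 DICER_KO libraries and not in the third. Together the 46 genes took 8709 to 9111 CPM in controls, 12833 CPM in DICER_KO replicate 1, 11732 in replicate 2 and 7623 in replicate 3. These sums were 1.45, 1.32 and 0.859 times the control mean. In replicates 1 and 2, 44 of 46 genes lay above all 3 controls, against 28.2% of all genes tested, and 2 (Cox4i2 and Cox6a2) lay below all 3, against 23.5%. In replicate 3, 28 of 46 genes lay below all controls (28.9% of all genes), 18 lay within the control range and 0 lay above it. No gene of the set had all 3 DICER_KO libraries above all controls, against 10.4% of all genes, or all 3 below, against 9.81%. Scaling to the reads on the listed genes instead put all 3 above in Atp5j, Cox6b2 and Cox7c (13.1% of all genes), and quantile normalization in Atp5j, Cox6a1 and Cox6b2 (9.80%).

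With all 6 libraries, 44 of 46 log2 differences were positive, against 52.8% of all genes tested, and the median was 0.27, against 0.02 over all genes. None of the 46 passed the limma threshold (adjusted p under 0.05) in either direction. Over all genes 0.149% passed as higher and 0.288% as lower. At an unadjusted limma p under 0.05, 9 genes of the set were higher and 1 was lower, where 8.49% and 7.35% of all genes were. The smallest adjusted p in the set was 0.192, for Cox8b. Without DICER_KO replicate 3, 41 genes rose and 1 fell, against 12.5% and 7.22% of all genes, and the median was 0.49, a ratio of 1.41. Because that fit omits the discordant library, its p-values do not describe all 3 DICER_KO libraries. Down-weighting libraries by their spread called 40 genes higher and 1 lower, against 19.2% and 13.6% of all genes. In bulk RNA, fewer cells of a type and less RNA per cell cannot be told apart.

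**Figure D1:**
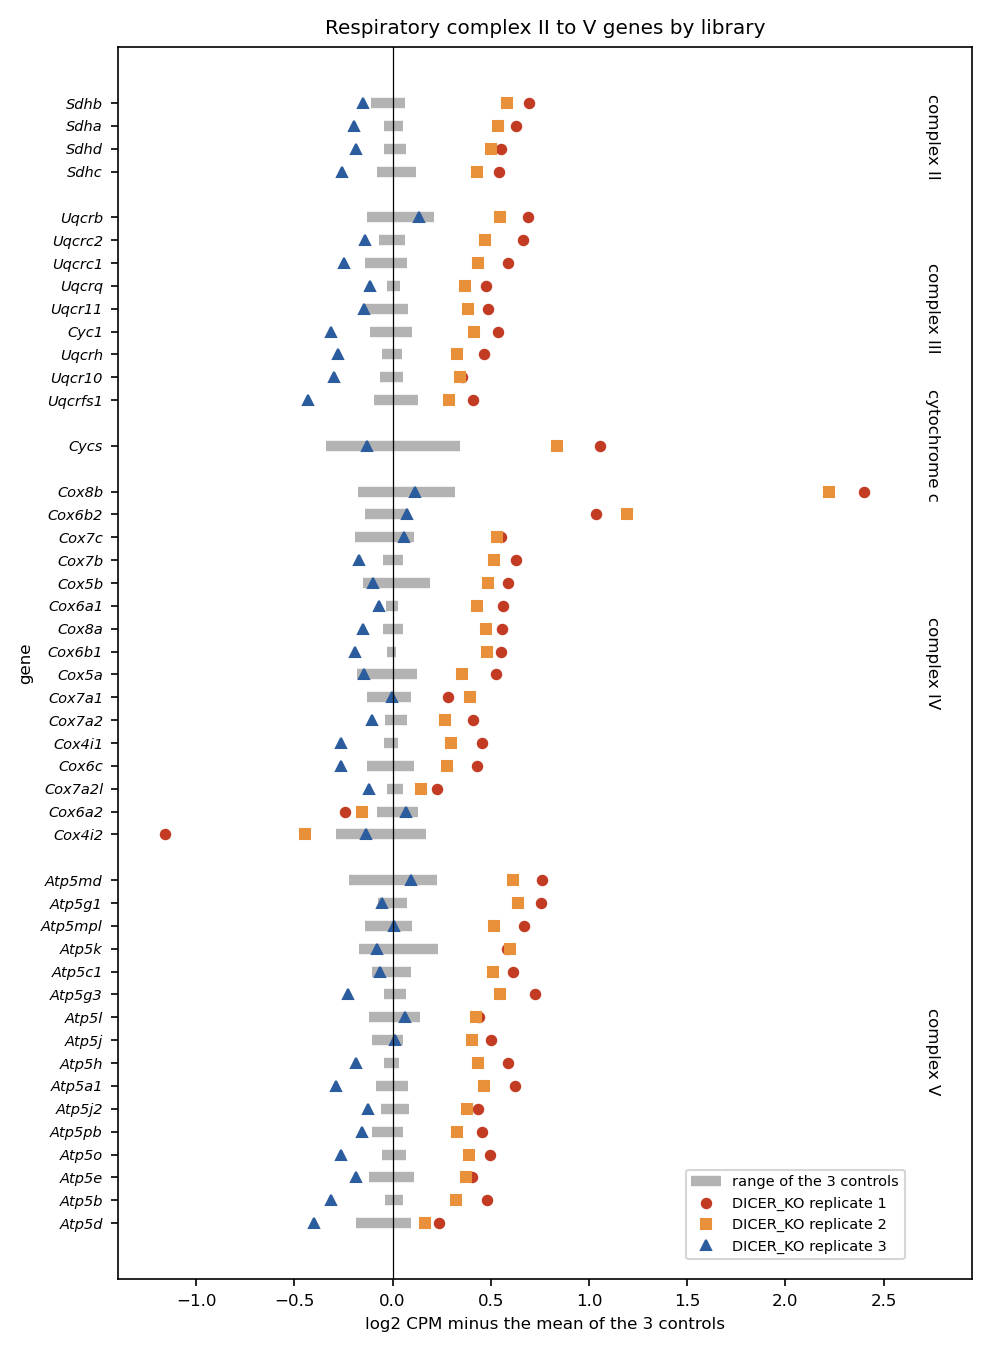
Log2 CPM of each of the 46 genes in the 3 DICER_KO libraries, minus the mean of the 3 controls (x axis), with genes grouped by complex and ordered by their difference (y axis). Grey bars span the 3 controls. Circles and squares (replicates 1 and 2) lie right of the grey bar in 44 genes, and triangles (replicate 3) lie left of the control mean in 37.

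The order of the 3 DICER_KO libraries was nearly the same from gene to gene. Replicate 3 was the lowest of the 3 in 44 of 46 genes, against 40.6% of all genes, and replicate 1 lay above replicate 2 in 41, against 50.7%. Over the whole set, replicates 1, 2 and 3 lay a median of 0.55, 0.43 and -0.14 log2 units from the control mean. By complex it was 0.59, 0.52 and -0.19 for complex II, 0.49, 0.38 and -0.25 for complex III, 0.54, 0.41 and -0.11 for complex IV, and 0.54, 0.43 and -0.14 for complex V. All 4 complexes thus showed the same order of libraries. The position of replicate 3 moved with the scaling. It lay below the control mean in 37 genes as deposited, and in 38 under median-of-ratios scaling, 33 when scaled to the reads on the listed genes and 35 under quantile normalization. It lay below all 3 controls in 28 genes as deposited, and in 29, 21 and 26 under these scalings, and above all 3 in 0, 0, 4 and 3. Replicates 1 and 2 both lay above all controls in 44 genes under each of these scalings.

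Lists of cell type markers were compared between the libraries beside this set, and they did not all follow its pattern. Of 20 mature adipocyte markers, 20 were in the table and 19 were tested. DICER_KO replicates 1, 2 and 3 lay a median of 0.63, 0.67 and -1.02 from the control mean over these markers, so the libraries took the same sides of the controls as in the respiratory set. Their median difference was 0.26 with 0 past the threshold, and without replicate 3, 15 rose and 1 fell (12.5% and 7.22% of all genes). Preadipocyte and fibroblast markers (21 of 23 in the table, 19 tested) summed to 17862 to 20475 CPM in controls, against 12881 to 13710 in DICER_KO, with Col3a1, a fibrillar collagen gene, past the threshold (-1.44, adjusted p = 0.00856; -1.25, adjusted p = 3.09e-06 without replicate 3). The Col3a1 call was lost without control replicate 3 (adjusted p = 0.0786) and with a replicate block (adjusted p = 0.109). Without DICER_KO replicate 3, 1 marker of this list rose and 6 fell (12.5% and 7.22% of all genes). By the list's sum all 3 DICER_KO libraries, replicate 3 included, lay below all controls. Fn1 and Col1a1, at 4561 and 4203 CPM in controls, weigh heavily in that sum. Over the 19 tested markers the median stood at -0.19, -0.18 and -0.30 in DICER_KO replicates 1, 2 and 3. All DICER_KO libraries lay below all controls in 7 of the 19, against 9.81% of all genes. Macrophage markers summed to 33.7 to 38.7 CPM in controls, against 38.5 to 39.8 in DICER_KO (6 of 10 in the table). Endothelial markers summed to 4.94 to 6.09 and 6.31 to 8.16 CPM (4 of 7), and muscle markers to 1.19 to 1.55 and 1.26 to 1.74 CPM (3 of 12). The smallest p of each list belonged to Car3, an adipocyte carbonic anhydrase gene (-2.43, adjusted p = 0.116), Cd68 of macrophages (0.39, adjusted p = 0.163), Tek of endothelium (0.67, adjusted p = 0.118) and Acta1 of muscle (0.31, adjusted p = 0.585). Without replicate 3 Car3 fell by 1.48 (adjusted p = 4.17e-05), while Cd68 rose by 0.39 (adjusted p = 0.0334) and Tek by 0.68 (adjusted p = 0.0194), and Acta1 did not pass (adjusted p = 0.759). The other tested endothelial marker, Kdr, differed by -1.39 (adjusted p = 0.319), and by -2.07 without replicate 3 (adjusted p = 0.0130). The other tested macrophage markers, Csf1r and Cd14, differed by -0.16 and -0.17 (adjusted p = 0.704 and 0.614). Neither passed without replicate 3 (adjusted p = 0.198 and 0.982). The macrophage genes Ptprc, Adgre1, Itgam and Tyrobp and the muscle genes Ckm, Myh1, Myh2, Myh4 and Myh7 are not analysed here. The part of adipocyte marker abundance, and of the other lists, in the respiratory differences was not tested.

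Promoters of respiratory genes are known for sites of the nuclear respiratory factors NRF1 and GABPA, of YY1, of oestrogen-related receptors (ERR) and of CREB, which beta-adrenergic signals activate through cyclic AMP. Since these genes moved together, the RefSeq promoter windows (GRCm38.p6, 250 bases before to 50 after the start) were searched for those letters on both strands. Of the 46 measured genes, 35 matched the table, with 38 windows, and 11 did not. The full palindrome of NRF1, in capitals in Cox6a1 and Atp5k below, was in 3 of 38 windows (7.89%), those of Atp5k, Cox6a1 and Uqcrc1, against 1.89% of the windows of tested genes and 0.971% of all windows. Its core, which leaves the middle pair of bases free and so includes the full palindrome, was in 9 windows (23.7%), against 12.2% and 6.23%. GABPA letters CCGGAAGT were in 4 windows (10.5%, against 7.34% and 3.89%), and the cyclic AMP element TGACGTCA in 2 (5.26%, against 2.91% and 1.79%). ERR letters TCAAGGTCA were also in 2 windows (5.26%), against 0.307% and 0.423%, in Atp5g3 and Sdhd. A long YY1 motif was in 0 windows (against 1.29% and 0.633%), and its first bases, AAGATGG, in 4 (10.5%, against 6.30% and 6.34%). A match is a description of letters and not evidence of binding. The stretches below were picked as examples from every complex and of each motif found except YY1, with the matched letters in capitals, all read 5′ to 3′ on the minus strand that each gene uses.
Sdha, NRF1 core, chr13:74350319-74350348: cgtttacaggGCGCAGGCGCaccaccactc
Uqcrfs1, cyclic AMP element, chr13:30545327-30545356: cggcgtcgcgcTGACGTCAcaaaccctgcg
Uqcr11, GABPA, chr10:80406869-80406898: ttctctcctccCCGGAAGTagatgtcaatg
Cycs, cyclic AMP element, chr6:50566720-50566749: aggccagagggTGACGTCAcgcacgtccac
Cox6a1, NRF1, chr5:115349101-115349130: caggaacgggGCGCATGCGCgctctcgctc
Atp5k, NRF1, chr5:108434430-108434459: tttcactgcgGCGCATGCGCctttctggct
Atp5g3, ERR letters reversed, chr2:73911359-73911388: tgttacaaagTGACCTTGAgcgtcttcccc

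In complex II all 4 genes had positive differences and the same order of DICER_KO libraries. The differences ran from 0.24 to 0.38 (median 0.31), and 0 passed with all libraries. All 4 rose without DICER_KO replicate 3 (0.49 to 0.64), against 12.5% of all genes. Sdhb, the iron-sulphur subunit that carries electrons out of the catalytic part, had the largest difference (chromosome 4, 140961271 to 140979198, GRCm38). Sdhb read 6.87, 6.85 and 6.70 log2 CPM in controls, against 7.51, 7.39 and 6.66 in DICER_KO. Its first 2 DICER_KO libraries lay above the controls and the third just below them, with a difference of 0.38 (SE 0.19, limma adjusted p = 0.355). Without replicate 3, Sdhb rose by 0.64 (adjusted p = 0.000381).

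Sdha (chromosome 13, 74322255 to 74350240), the flavoprotein that oxidizes succinate and whose NRF1-like stretch is shown above, read 8.15, 8.18 and 8.25 in controls, against 8.82, 8.73 and 7.99 in DICER_KO. The difference was 0.32 with all libraries (SE 0.19, adjusted p = 0.399) and 0.58 without replicate 3 (adjusted p = 0.000565). The membrane anchors Sdhd and Sdhc, which hold the quinone site, differed by 0.29 (adjusted p = 0.416) and 0.24 (adjusted p = 0.502). Without replicate 3 Sdhd rose by 0.53 (adjusted p = 0.00114). Sdhc (chromosome 1, 171129157 to 171150640) was the smallest of the 4 and still rose by 0.49 without replicate 3 (adjusted p = 0.00314). In replicate 3 each of the 4 genes lay below all 3 controls.

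Complex III genes differed by 0.09 to 0.46 (median 0.24), with 0 of 9 past the threshold. All 9 were higher without replicate 3 (0.35 to 0.62), against 12.5% of all genes. Uqcrb (chromosome 13, 66900576 to 66905350), a small subunit near the quinone site, had the smallest p and the largest difference of the complex. It read 5.92, 5.88 and 6.22 log2 CPM in controls, against 6.70, 6.55 and 6.14 in DICER_KO. Replicate 3 lay within the control range and the other 2 lay above it, with a difference of 0.46 (SE 0.15, adjusted p = 0.225). Omitting replicate 3, Uqcrb rose by 0.62 (adjusted p = 0.00154). Uqcrfs1 (chromosome 13, 30540312 to 30545316), the Rieske iron-sulphur protein that passes electrons to cytochrome c1, had the smallest difference.

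Uqcrfs1 read 7.56, 7.39 and 7.34 in controls, against 7.84, 7.72 and 7.0 in DICER_KO, a difference of 0.09 (SE 0.19, 95% interval -0.33 to 0.51, adjusted p = 0.824). Without replicate 3 it rose by 0.35 (adjusted p = 0.0238). Leaving out DICER_KO replicate 1 instead gave -0.070, and leaving out replicate 2 gave -0.010, so its sign rested on single libraries. Cyc1, which encodes cytochrome c1, the other electron carrier of the complex, differed by 0.21 (adjusted p = 0.564) and rose by 0.47 without replicate 3 (adjusted p = 0.00388). Within the complex, replicate 3 lay lowest against the control mean in these carriers, at -0.43 for Uqcrfs1 and -0.31 for Cyc1. The core proteins Uqcrc1 and Uqcrc2, which form the matrix side of the complex, differed by 0.26 and 0.33. The accessory subunits Uqcrq, Uqcr11, Uqcrh and Uqcr10 differed by 0.24, 0.24, 0.17 and 0.13.

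Cytochrome c, encoded by Cycs (chromosome 6, 50562563 to 50566569), shuttles electrons from complex III to complex IV, and once released into the cytosol it starts the apoptotic caspase cascade. Its window holds the cyclic AMP element printed above. Cycs read 6.14, 5.81 and 6.50 log2 CPM in controls, against 7.21, 6.99 and 6.02 in DICER_KO. Replicates 1 and 2 lay 1.06 and 0.84 above the control mean, and replicate 3 lay 0.13 below it and within the controls. The difference was 0.59 (SE 0.27, adjusted p = 0.321), and without replicate 3 Cycs rose by 0.95 (adjusted p = 0.000439), a ratio of 1.93. Only Cox8b and Cox6b2 had larger positive differences in the set. RefSeq lists pseudogenes named after Cycs, so its reads may have been split.

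Complex IV holds general subunits made in every tissue and isoforms that replace some of them in particular tissues. All 10 general subunits rose without replicate 3 (0.34 to 0.57), against 12.5% of all genes. With all libraries the 10 had positive differences (0.15 to 0.38, median 0.29), and 0 passed. Cox7c (chromosome 13, 86044798 to 86046795) had the largest, at 5.25, 4.95 and 5.23 log2 CPM in controls, against 5.70, 5.68 and 5.20 in DICER_KO, a difference of 0.38 (SE 0.15, adjusted p = 0.276), or 0.54 without replicate 3 (adjusted p = 0.00392). Cox7c also has a named pseudogene. Cox6a1 and Cox8a, with differences of 0.31 (adjusted p = 0.343) and 0.29 (adjusted p = 0.395), are the general partners of isoforms described next. Cox4i1 (chromosome 8, 120668225 to 120674209), the subunit through which ATP inhibits the oxidase, read 9.31, 9.32 and 9.25 in controls, against 9.75, 9.59 and 9.04 in DICER_KO. Its difference was 0.16 (SE 0.17, adjusted p = 0.618), near the low end, and it rose by 0.37 without replicate 3 (adjusted p = 0.0154). The remaining general subunits were Cox7b (0.32), Cox5b (0.32), Cox6b1 (0.28), Cox5a (0.25), Cox7a2 (0.19) and Cox6c (0.15). The supercomplex factor Cox7a2l read 6.77, 6.85 and 6.77 in controls, against 7.02, 6.94 and 6.67 in DICER_KO. Its difference of 0.08 (SE 0.11, adjusted p = 0.713) grew to 0.19 without replicate 3 and did not pass there (adjusted p = 0.170).

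The tissue isoforms of complex IV held both ends of the range. Cox8b (chromosome 7, 140898942 to 140900446), the heart, muscle and brown fat isoform of subunit VIII, read 1.56, 1.07 and 1.10 log2 CPM in controls, against 3.65, 3.47 and 1.36 in DICER_KO. It stood further above the control mean in replicates 1 and 2 than any other gene of the set, by 2.40 and 2.22, while replicate 3 lay within the controls. The difference was 1.58 (SE 0.49, 95% interval 0.49 to 2.66), which did not pass over all genes (adjusted p = 0.192). Without replicate 3, Cox8b rose by 2.31 (adjusted p = 2.06e-06), a ratio of 4.97. Cox6b2 (chromosome 7, 4751792 to 4753094), the testis isoform of subunit VIb, read 0.79, 0.80 and 0.58 in controls, against 1.76, 1.91 and 0.80 in DICER_KO. Its difference was 0.77 (SE 0.30, adjusted p = 0.268), and Cox6b2 rose by 1.11 without replicate 3 (adjusted p = 0.00420). Cox7a1 (chromosome 7, 30184171 to 30186030), the heart, muscle and brown fat isoform of subunit VIIa, read 3.50, 3.73 and 3.67 in controls, against 3.92, 4.03 and 3.63 in DICER_KO. It differed by 0.22 (SE 0.14, adjusted p = 0.437) and did not pass without replicate 3 either (0.34, adjusted p = 0.0840).

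Cox8b and Cox7a1 are also counted among brown and beige adipocyte markers, of which 13 of 15 were in the table and 10 were tested. These markers summed to 229.6 to 240.3 CPM in controls, and to 355.2, 350.1 and 242.1 CPM in DICER_KO replicates 1, 2 and 3. Their median difference was 0.29, with 0 past the threshold and 5 higher without replicate 3 (12.5% of all genes), and over the 8 tested markers other than Cox8b and Cox7a1 it was 0.09. Kcnk3, a potassium channel gene, had the smallest p of the list (1.18, adjusted p = 0.0965; 1.58, adjusted p = 2.1e-07 when replicate 3 was omitted). Tnfrsf9 and Kcnk3, at 100 and 43.8 CPM in controls, weigh heavily in the list's sum. In DICER_KO replicates 1, 2 and 3, Kcnk3 stood at 1.69, 1.46 and 0.38 against the control mean. Tnfrsf9 stood at -0.40, -0.13 and 0.03. Ucp1, the uncoupling protein that defines thermogenic fat, stood at 2.38, 2.34 and 2.39 log2 CPM in controls, against 3.02, 2.65 and 0.76 in DICER_KO. Replicates 1 and 2 lay above the controls and replicate 3 lay below them. Ucp1 differed by -0.23 (SE 0.46, adjusted p = 0.814). Without replicate 3 its difference was 0.47 and did not pass (adjusted p = 0.0698). Of the 8 tested markers other than Cox8b and Cox7a1, 4 had negative differences (Ucp1, Elovl3, Tnfrsf9 and Tbx1) and 4 had positive ones. The part of this list in the Cox8b values was not tested.

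Cox4i2 and Cox6a2 were the 2 genes of the whole set with negative differences. Cox4i2 (chromosome 2, 152753916 to 152765039), the isoform of subunit IV known from lung and from hypoxic cells, read 3.62, 3.67 and 3.22 log2 CPM in controls, against 2.35, 3.06 and 3.37 in DICER_KO. Replicate 3 lay among the controls, and the difference was -0.58 (SE 0.24, adjusted p = 0.291). Without replicate 3 Cox4i2 fell by 0.80 (adjusted p = 0.0107), and was the 1 gene of the set that fell there. Cox6a2 (chromosome 7, 128205435 to 128206366), the heart and skeletal muscle isoform of subunit VIa, read 2.15, 2.34 and 2.13 in controls, against 1.96, 2.05 and 2.27 in DICER_KO. Its difference was -0.11 (adjusted p = 0.757), or -0.20 without replicate 3 (adjusted p = 0.450). In both genes replicate 3 was the highest of the DICER_KO libraries, the reverse of the order in the other 44.

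A ratio of 2 genes within a library does not depend on its scaling. Of the 8 ratios compared, 5 set an isoform against its general partner, and the others were Cox7a2l over Cox7a2, Atp5g1 over Atp5g3, and Cox5b over Cox5a, which are separate general subunits. For each ratio, 3 against 3 libraries cannot give an exact two-sided permutation p below 0.1, and adjusted over the 8 ratios all p-values were 0.4 to 0.7. Compared per transcript length, Cox8b stood at 1.24% of Cox8a in controls (range 1.04 to 1.58%), and at 4.39, 4.10 and 1.47% in DICER_KO replicates 1, 2 and 3. The log2 ratio was higher by 1.28 in DICER_KO (exact permutation p = 0.2), with replicate 3 inside the control range, and by 1.80 without replicate 3. Cox4i2 stood at 1.87% of Cox4i1 in controls and at 0.606, 1.11 and 2.02% in DICER_KO, a log2 ratio difference of -0.74 (exact permutation p = 0.3), or -1.18 without replicate 3. Cox6a2 over Cox6a1 gave -0.42 (exact permutation p = 0.3), or -0.69 without replicate 3. Cox6b2 over Cox6b1 gave 0.48 (0.60 without replicate 3), and Atp5g1 over Atp5g3, both coding the same ring protein, gave 0.10 (0.061). In these 2 ratios all DICER_KO libraries, replicate 3 included, lay above all controls, which is the smallest exact permutation p the design allows (0.1). Cox7a1 over Cox7a2 (0.03) and Cox5b over Cox5a (0.08) overlapped between groups (exact permutation p = 0.7), and Cox7a2l over Cox7a2 gave -0.11 (exact permutation p = 0.2).

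**Figure D2:**
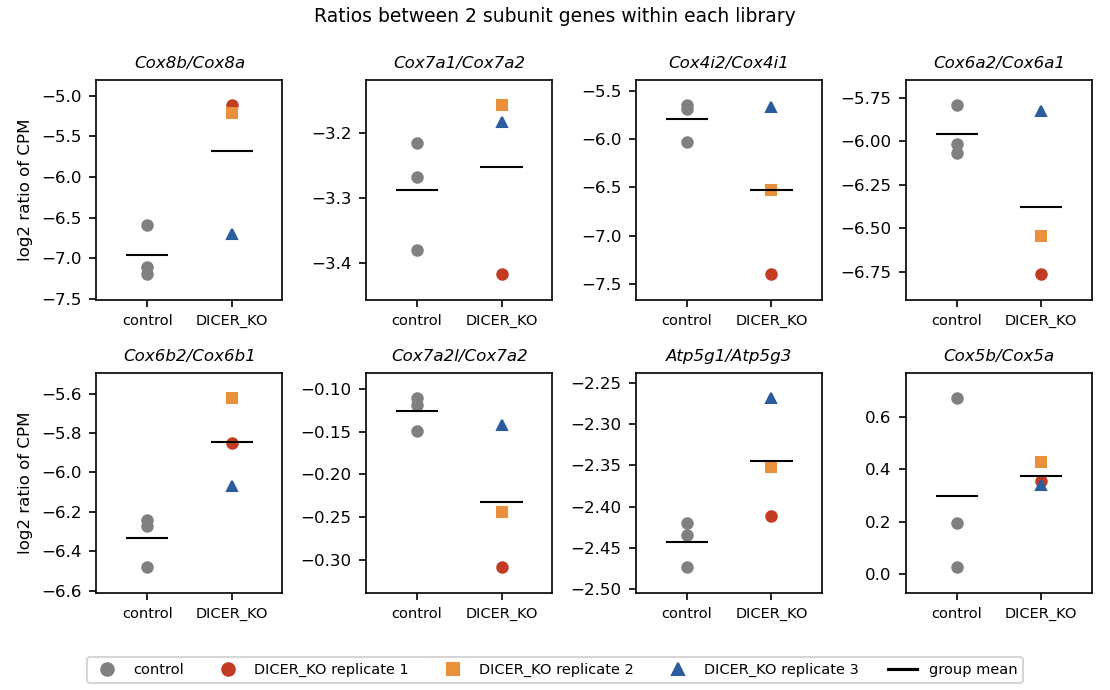
Log2 ratio of CPM between 2 subunit genes within each library (y axis, a separate scale per panel) for control and DICER_KO libraries (x axis), with the group mean as a line. Cox8b/Cox8a and Cox4i2/Cox4i1 have replicate 3 among the controls, while Cox6b2/Cox6b1 and Atp5g1/Atp5g3 have all 3 DICER_KO libraries above them.

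Without replicate 3, 15 of 16 complex V genes were higher, against 12.5% of all genes. With all libraries the 16 genes differed by 0.00 to 0.49 (median 0.29), with 0 past the threshold. By role the median difference was 0.40 for the 2 genes of the c-ring, 0.37 for the small membrane subunits, 0.24 for the peripheral stalk and 0.20 for the catalytic head. The roles overlapped, as Atp5c1 of the head and rotor (0.35) stood above the membrane subunits Atp5l (0.31) and Atp5j2 (0.23). The 5 small membrane subunits (Atp5md, Atp5mpl, Atp5k, Atp5l and Atp5j2) had replicate 3 at a median of 0.00 against the control mean. The 5 genes of the head and rotor (Atp5a1, Atp5b, Atp5c1, Atp5d and Atp5e) had it at -0.29. The differences between roles were not tested. Atp5md (chromosome 19, 47083471 to 47090647), a small subunit involved in the dimers of the enzyme, had the smallest p. It read 5.99, 5.78 and 6.23 log2 CPM in controls, against 6.76, 6.61 and 6.09 in DICER_KO, with replicate 3 inside the controls. The difference was 0.49 (SE 0.17, adjusted p = 0.242), and leaving out replicate 3 Atp5md rose by 0.69 (adjusted p = 0.00108).

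The ring of subunit c, which turns as protons pass, is made of 1 protein encoded by several genes. Atp5g1 (chromosome 11, 96072793 to 96075694), the regulated member of the family, read 6.09, 6.01 and 5.94 log2 CPM in controls, against 6.77, 6.65 and 5.96 in DICER_KO. Atp5g3 (chromosome 2, 73908447 to 73912464) has the ERR letters shown above inside this span, in the window of an internal start. It read 8.52, 8.43 and 8.41 in controls, against 9.18, 9.0 and 8.23 in DICER_KO. The differences of Atp5g1 and Atp5g3 were 0.45 (SE 0.18, adjusted p = 0.287) and 0.35 (SE 0.20, adjusted p = 0.404). Without replicate 3 they rose by 0.70 (adjusted p = 0.000202) and 0.64 (adjusted p = 0.000405). The peripheral stalk, which keeps the head from turning, had differences of 0.31 for Atp5j, 0.28 for Atp5h, 0.21 for Atp5pb and 0.21 for Atp5o. Atp5j shares 397 exon bases with Gabpa on the other strand, and since no strand setting is stated, reads of the 2 cannot be told apart there.

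In the catalytic head, Atp5b (chromosome 10, 128083307 to 128090388), the catalytic beta subunit, read 10.82, 10.76 and 10.73 log2 CPM in controls, against 11.25, 11.10 and 10.46 in DICER_KO. It differed by 0.16 (SE 0.19, adjusted p = 0.659) and rose by 0.40 without replicate 3 (adjusted p = 0.0161). Atp5a1, the alpha subunit, differed by 0.27 (adjusted p = 0.504) and rose by 0.54 without replicate 3 (adjusted p = 0.00214). Atp5d (chromosome 10, 80138698 to 80145828), the delta subunit of the central rotor, had the smallest difference of the complex. It read 7.98, 7.97 and 7.69 in controls, against 8.12, 8.05 and 7.48 in DICER_KO. The difference was 0.00 (SE 0.17, 95% interval -0.36 to 0.37, adjusted p = 0.998), with -0.014 under median-of-ratios scaling and -0.030 under quantile normalization. Without replicate 3 Atp5d differed by 0.20 and did not pass (adjusted p = 0.188).

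**Figure D3:**
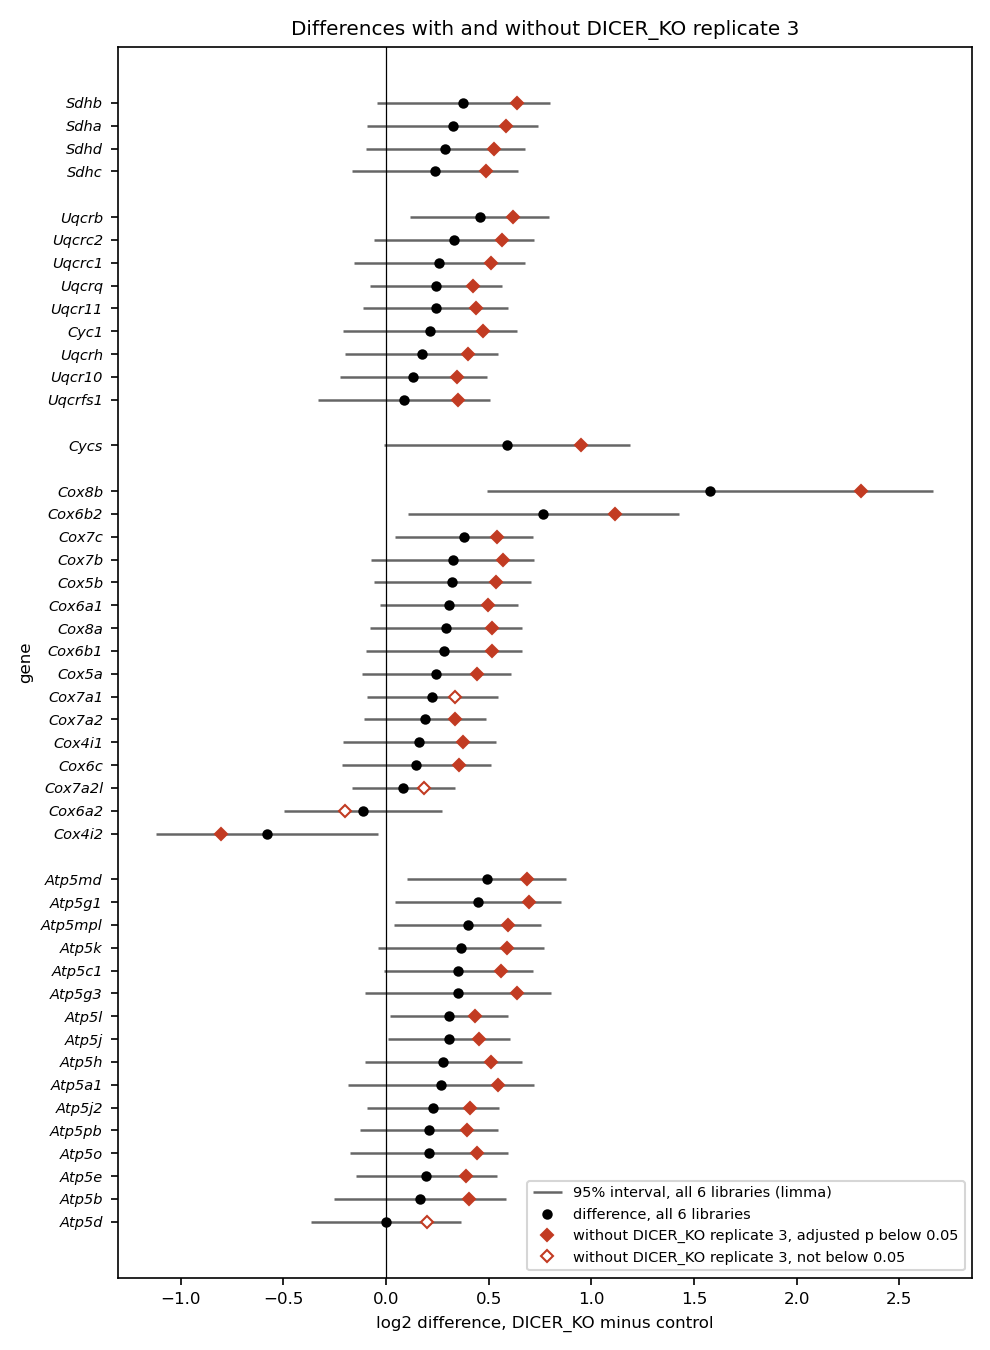
Log2 difference, DICER_KO minus control (x axis), for each of the 46 genes (y axis, in the same order as in the plot by library). Black points with lines are limma estimates with 95% intervals from all 6 libraries, and red diamonds leave out DICER_KO replicate 3, filled where the adjusted p was below 0.05. The filled diamonds number 41 right of 0 and 1 left of it, Cox4i2.

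Per transcript length, the levels spanned a wide range in controls. The most abundant transcripts were Atp5b at 912 ± 30.1 RPKM and Cox4i1 at 844 ± 21.5 RPKM (SD, n = 3), followed by Cox8a at 539 ± 19.5, Cox6a1 at 503 ± 11.1 and Atp5g3 at 492 ± 20.3 (SD, n = 3). Cox6a1 and Atp5g3 lay within each other's spread, so their order is not set. The lowest were the isoforms Cox6b2 at 3.91 ± 0.321, Cox8b at 6.67 ± 1.34, Cox6a2 at 6.80 ± 0.550 and Cox4i2 at 15.8 ± 2.58 RPKM (SD, n = 3). Cox8b and Cox6a2 lay within each other's spread. Cycs, at 23.2 ± 5.47 RPKM, was lower than every subunit of complexes II, III and V (39.0 RPKM or more). RPKM values rest on 1 annotated transcript per gene, so they order genes only roughly.

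Genes of the same organelle that meet other names were set beside these complexes. All 36 tested complex I subunit genes had positive differences (median 0.28), and 33 rose without replicate 3, against 12.5% of all genes. All 18 genes of the citric acid cycle and pyruvate dehydrogenase were positive (median 0.23), and 15 rose without replicate 3. In replicates 1, 2 and 3 the median stood at 0.47, 0.43 and -0.09 for complex I and at 0.47, 0.40 and -0.23 for the cycle, the order seen in complexes II to V. With all libraries 0 genes passed in either list, and the smallest adjusted p was 0.217 for Ndufc2, a complex I subunit (0.55, or 0.76 without replicate 3), and 0.193 for Dlat, a pyruvate dehydrogenase subunit (0.66, or 0.95 without it). Both rose in the latter fit (adjusted p = 0.000659 and 2.72e-05). Cytosolic ribosomal proteins differed in the other direction, with 0 of 18 positive, a median of -0.18 and 4 lower without replicate 3 (7.22% of all genes). Rps2 had the smallest p of that list (-0.26, adjusted p = 0.268; -0.29, adjusted p = 0.0426 without replicate 3).

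Assembly factors, which build the complexes and are not part of them, had smaller median differences than the subunits of the same complex. For complex IV, 24 of 30 listed factors were tested, with a median of 0.16. Without replicate 3, where 12.5% of all genes rose, 6 of the 24 did (Cox14, Cox17, Coa5, Coa7, Smim20 and Higd2a). Cox17, the chaperone that brings copper to the oxidase, had the smallest p of these, with 5.47, 5.28 and 5.57 log2 CPM in controls, against 5.89, 5.73 and 5.62 in DICER_KO. Here all 3 DICER_KO libraries lay above all controls, yet the difference of 0.31 did not pass (SE 0.12, adjusted p = 0.268). Leaving out replicate 3 gave 0.37 (adjusted p = 0.0321). For complex III, 6 of 9 factors were tested (median 0.21), and 2 rose without replicate 3, against the same 12.5%. Its smallest p was that of Ttc19, a factor that clears fragments of the Rieske protein (0.28, adjusted p = 0.268; 0.34, adjusted p = 0.0425 without replicate 3). For complex V, 5 of 5 were tested (median 0.16), and 2 rose without replicate 3, again against 12.5%, with the smallest p for Atpaf1, a chaperone of the beta subunit (0.35, adjusted p = 0.317; 0.45, adjusted p = 0.0530 without replicate 3). For complex II, 3 of 4 were tested (median 0.13, 0 called with or without replicate 3), with the smallest p for Sdhaf4 (0.13, adjusted p = 0.603; 0.18, adjusted p = 0.351 without replicate 3). The difference between assembly factors and subunits was not tested. The inhibitor factor gene Atpif1 is not analysed here.

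**Figure D4:**
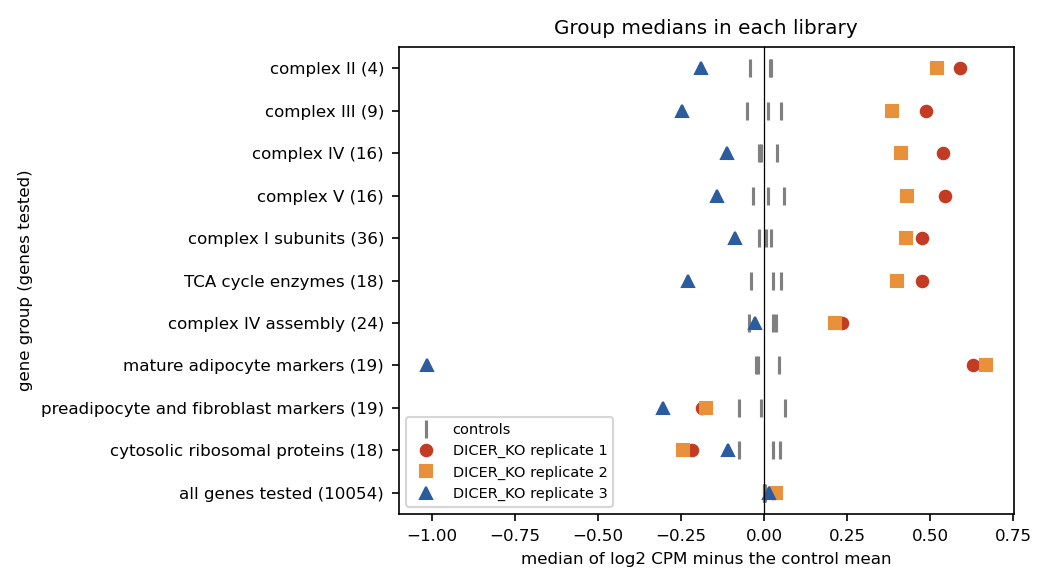
Median over the genes of each group (y axis, number tested in brackets) of log2 CPM minus the control mean (x axis), for each library. Replicates 1 and 2 stand right of the controls in complexes II to V, complex I and the citric acid cycle, and replicate 3 stands left of them. In mature adipocyte markers replicate 3 is at -1.02.

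A pair of related genes outside the naming rule behaved differently from each other. Ndufa4, a subunit now assigned to complex IV, read 6.59, 6.47 and 6.66 log2 CPM in controls, against 7.37, 7.20 and 6.54 in DICER_KO. It differed by 0.46 (SE 0.18, adjusted p = 0.275) and rose by 0.71 without replicate 3 (adjusted p = 0.000200). Its paralog Ndufa4l2, known as a hypoxia-induced gene, read 5.90, 6.04 and 5.86 in controls, against 5.39, 5.47 and 5.63 in DICER_KO. All DICER_KO libraries lay below all controls, with a difference of -0.43 (SE 0.11) that did not pass over all genes (adjusted p = 0.116). Ndufa4l2 fell by 0.50 without replicate 3 (adjusted p = 0.00335). Cox4i2 and Ndufa4l2, both known from hypoxic cells, were thus on the opposite side of their general partners in replicates 1 and 2.

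Of 20 listed regulators of nuclear respiratory genes, 16 were tested, with a median of 0.20, 10 positive differences (52.8% over all genes) and 0 past the threshold. Without replicate 3, 5 rose and 2 fell, against 12.5% and 7.22% of all genes. The counts of positive and lower genes lay near those shares. Ppargc1a, the coactivator that drives mitochondrial gene programmes, read 3.36, 3.04 and 3.28 log2 CPM in controls, against 4.48, 4.49 and 2.60 in DICER_KO. Its first 2 DICER_KO libraries lay above all controls and the third below them, as in Sdha and Sdhb. It differed by 0.63 (SE 0.41, adjusted p = 0.442) and rose by 1.26 without replicate 3 (adjusted p = 1.7e-05). In that fit its relative Ppargc1b rose by 1.12 (adjusted p = 5.18e-06). The fatty acid receptor gene Ppara rose there by 1.65 (adjusted p = 2.09e-07). With all libraries these 2 differed by 0.59 and 0.96 (adjusted p = 0.401 and 0.317), and replicate 3 lay below all controls in both. Also called without replicate 3 were Nrip1, which rose by 0.48 (adjusted p = 0.00609), and Foxc2, which fell by 0.77 (adjusted p = 0.00209). With all libraries Nrip1 and Foxc2 differed by 0.28 and -0.54 (adjusted p = 0.402 and 0.250). Esrra, which encodes an ERR, differed by 0.18 (adjusted p = 0.536) and rose by 0.36 without replicate 3 (adjusted p = 0.0210).

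Pprc1, the third coactivator of the Ppargc1a family, went the other way, at 6.80, 6.74 and 6.48 in controls, against 6.30, 6.08 and 6.51 in DICER_KO. It differed by -0.38 (adjusted p = 0.239, the smallest p of the list) and fell by 0.49 without replicate 3 (adjusted p = 0.00768). Nrf1, which encodes the factor that binds the NRF1 palindrome, read 5.75, 5.88 and 5.61 in controls, against 5.60, 5.61 and 5.61 in DICER_KO. Its difference was -0.14 (adjusted p = 0.495), and -0.15 without replicate 3 (adjusted p = 0.348). Gabpa differed by 0.23 (adjusted p = 0.447), and by 0.36 without replicate 3 (adjusted p = 0.0556), with the overlap with Atp5j named above. Tfam is not analysed here.

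Several genes of the set start close to a gene on the other strand. Of the 46 genes, 10 (21.7%) had such a coding neighbour within 1000 bases, against 10.1% of tested coding genes, and 6 of the neighbours were tested. Of these 6, 3 had positive differences and 0 passed with or without replicate 3. Their median was -0.02 with all libraries and 0.05 without replicate 3, while the 6 respiratory genes beside them had a median of 0.54 in the latter fit. Ccdc127 starts 29 bases from Sdha and stood at 0.00, 0.00 and 0.10 against the control mean in DICER_KO replicates 1, 2 and 3, where Sdha stood at 0.63, 0.54 and -0.20. Pdcd11, a ribosome assembly gene 121 bases from Atp5md, stood at -0.21, -0.20 and -0.04. Timm8b, a mitochondrial import gene 98 bases from Sdhd, stood at 0.22, 0.17 and -0.09, the same order of libraries as its neighbour. The difference between neighbours was not tested.

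**Figure D5:**
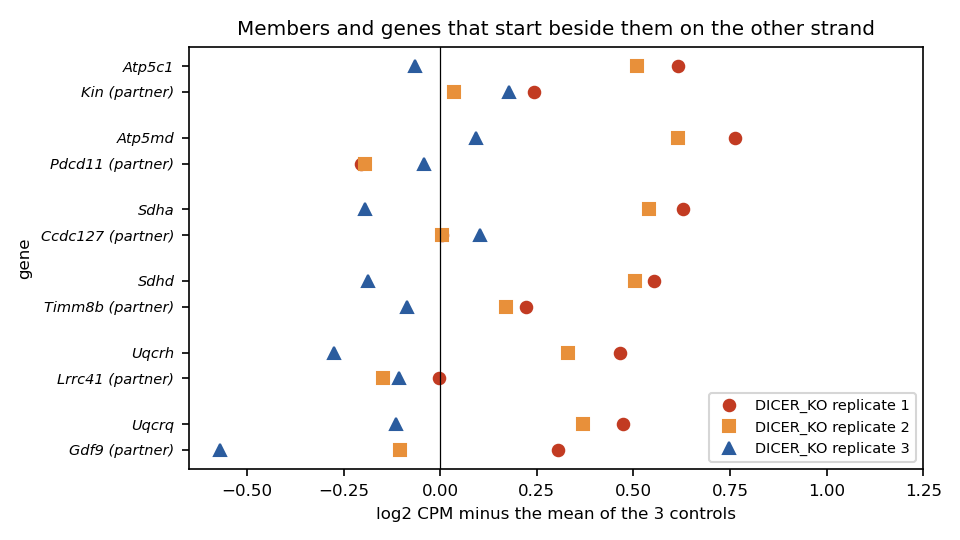
Log2 CPM minus the control mean (x axis) in the 3 DICER_KO libraries for 6 genes of the set and the tested gene that starts beside each on the other strand (y axis). In replicates 1 and 2 each respiratory gene stands right of its neighbour.

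Because Dicer1 makes mature microRNAs, the 3′ UTRs of the set were searched for matches to the seeds of 8 microRNAs. Mature sequences are from the RefSeq table for mouse, with the seed (bases 2 to 8) in capitals. A match is the reverse complement of the seed. The 4 shown belong to families known to be abundant in adipocytes.
let-7a-5p: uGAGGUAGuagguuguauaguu
miR-29a-3p: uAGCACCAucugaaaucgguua
miR-30a-5p: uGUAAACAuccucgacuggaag
miR-27b-3p: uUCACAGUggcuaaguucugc

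The 3′ UTRs of these genes are short, with a median of 205 bases (46 to 4255) against 1201 over 9522 tested genes. Of the 46 genes, 36 (78.3%) have one under 500 bases, against 23.9% of tested genes. A let-7a seed match was present in 1 gene, Cox7b (2.17% against 10.7% of tested genes). Matches for miR-29a were in Atp5g1 and Sdhc, for miR-27b in Atp5md, Sdha and Uqcrq, and for miR-30a in 0 genes, against 15.7%, 17.7% and 16.6% of tested genes. Also searched were miR-103 (2 genes, against 13.1%), miR-338 (2, against 15%), miR-181c (4, against 18.8%) and miR-210 (0, against 3.79%). Shares were not adjusted for UTR length, and a match is not evidence of regulation. Cox7b, with the let-7a match, differed by 0.32 (adjusted p = 0.385). The genes matched for miR-29a, miR-27b, miR-103, miR-338 and miR-181c had median differences of 0.34, 0.32, 0.35, 0.33 and 0.32, against 0.27 over the set. These medians rest on 2 to 4 genes each. The part of seed matches in the differences was not tested.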

How the data were processed

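Poly(A) RNA of 6 samples was made into NEBNext Ultra II libraries for paired-end Illumina NovaSeq sequencing, per the labels. Per the submitters' processing notes the tools included HISAT2, featureCounts, edgeR, FastQC and Trimmomatic, and the builds GRCm38 and mm10, with no versions or roles given. The series' design text names TMM scaling. Strand use is not given in the sources used here. The authors deposited log2 CPM for 13734 genes by Entrez ID, and 13682 IDs matched a RefSeq symbol (GRCm38.p6) and 52 did not. Every deposited log2 value is the log2 CPM of k + 0.5 reads with k whole (100% of values, tolerance 0.01 reads), so whole reads were recovered for limma-voom, an alternative. The library sizes implied by the deposited values were 17594568 to 42331787, and reads on the listed genes made 71.5 to 77.1% of them. Whether these sizes already include the TMM factors is not known, so the percentages may not be shares of sequenced reads.

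The members and gene lists were chosen with earlier results of these data known. Genes that reached 1 CPM in 3 or more libraries were tested with limma 3.58.1 (R 4.3.3), with an intensity trend and the group as the only term, on the deposited log2 values. The planned count model did not apply to this unit. P-values were Benjamini-Hochberg adjusted over 10054 genes with a threshold of 0.05. Ratios between 2 subunit genes were compared by exact permutation. Alternatives were 3 scalings, 2 filters, log2(CPM + 1), limma-voom, no trend, library weights, a replicate block and leaving out each library. Named genes were Dicer1, in each complex the members with the smallest p and the largest and smallest difference, subunits with a paralog, Cycs, and of each other list the genes past the threshold or the one with the smallest p, with 5 regulators. Further genes were named outside this rule with their values known, among them Ppargc1b, Ppara, Nrip1, Foxc2, Ucp1, Kdr and Ndufa4. Transcript lengths and 3′ UTRs came from GENCODE M21, promoters and microRNAs from RefSeq. The limma script was tested on simulated data. Python 3.11.15, numpy 2.4.6, pandas 2.3.3 and matplotlib 3.10.9 were used for the rest.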

Additional observations from a re-analysis of the deposited data

How the results depend on the processing

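The number of genes of complexes II to V past the threshold was 0 higher and 0 lower under each of the 3 scalings, both filters, log2(CPM + 1), limma-voom and no intensity trend. The filter at 5 CPM tested 43 of the 46 genes and left out Cox8b, Cox6b2 and Cox6a2. With library weights the number was 40 higher and 1 lower, against 19.2% and 13.6% of all genes. There DICER_KO replicate 3 had the lowest weight (0.242) and control replicate 1 the highest (3.84). Leaving out single libraries gave 0 to 41 higher and 0 to 1 lower, with all calls from the fit without DICER_KO replicate 3. The set's median ran from 0.14 (without DICER_KO replicate 1) to 0.49 (without DICER_KO replicate 3). Over all genes, calls numbered 44, and 1 to 36 without any one of the other 5 libraries, 19 without the trend, 31 at a filter of 5 CPM, 3299 with library weights and 1983 without DICER_KO replicate 3. The difference of Atp5d changed sign under median-of-ratios scaling (-0.014) and quantile normalization (-0.030) and without control replicate 3 (-0.093) or DICER_KO replicate 1 (-0.12) or 2 (-0.082), where single omissions spanned -0.12 to 0.20. That of Uqcrfs1 changed sign without DICER_KO replicate 1 (-0.070) or 2 (-0.010) and spanned -0.070 to 0.35 over the omissions, and that of the muscle gene Acta1 with library weights (-0.025). The cause was not tested. The call of Dicer1 was lost without the intensity trend (adjusted p = 0.0635), with the replicate block (0.119) and without any one library other than DICER_KO replicate 3 (0.0568 to 0.147), while its difference stayed between -0.68 and -0.64 in the fits that leave out 1 library. That of Col3a1 was lost with the block (0.109) and without control replicate 3 (0.0786). With the replicate number as a block, 0 genes of the set passed, their median was 0.27, and 2 genes passed over all genes. The labels do not say whether same-numbered libraries are paired. Deviations of same-numbered libraries from their group means correlated at 0.20, -0.01 and -0.08. With 3 libraries per group, each centred on its own mean, these values cannot decide the question. Of 46 genes, 8 have a RefSeq pseudogene of their name and 13 share exon bases with a gene on the other strand, so their reads may include others.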
